A study of Mus musculus with 13 samples.

Results

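Bone marrow taken 48 h after blood loss was compared with bone marrow taken 12 and 15 h after it, across all genes measured. The arrays were chosen by their time label, with earlier results of these data known. This gave 6 of the 13 arrays of the series: 2 at 48 h, 2 at 12 h and 2 at 15 h. All mice were C57BL/6 males, 6 weeks old, and all mice of these 3 groups had 500 µL of blood drawn by puncture behind the eye. Their marrow RNA came from femurs, and each sample was hybridised to its own Affymetrix Mouse Gene 1.0 ST array, read as log2 levels. Nothing in the labels ties a replicate to its own animal, so the p-values rest on the spread between samples, and that spread may be technical. The labels give no hour of day, so time after blood loss and time of day cannot be told apart. The comparison asks how the marrow late in the response differs from the marrow in its middle hours, when erythropoietin signalling has been under way for only part of a day.

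Loss of blood lowers oxygen delivery, and the kidney answers by releasing erythropoietin. Erythropoietin binds its receptor on erythroid precursors and activates the kinase JAK2 and the transcription factor STAT5, which switches on survival genes, feedback inhibitors and erythroferrone, a hormone that acts on the liver to lower hepcidin and so to free iron. The precursors then divide and mature, fill with heme and hemoglobin and build the red cell membrane. Femoral marrow also holds the cells that line and build bone, which make collagen and the proteins of mineralised matrix.

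STAT5 binds DNA at the letters TTCNNNGAA, which read the same on both strands. Of the 5 erythropoietin and STAT5 target genes lower at 48 h, 4 have a promoter window of 250 bases before to 50 bases after the gene's start in the RefSeq table (build GRCm38.p6), and 2 of these 4 hold the motif. It was found in 2 of 16 other measured members of that list with a window and in 9.55% of the 27025 genes of the table. The windows of Cish and Socs3 are shown because both genes are feedback inhibitors of the same receptor and both fell. Each is printed on its own strand from base -250, with the motif in capitals. The Cish window (chr9:107296409-107296678, plus strand) is printed up to the second motif, at bases 12 to 20 after the start, and the first lies at bases 1 to 9. The Socs3 window (chr11:117969367-117969616, minus strand) is printed up to the start, with the motif at bases -154 to -146. The Erfe and Pim1 windows did not hold these letters, and Socs2 has no entry. A match describes the sequence and is not evidence of binding.
Cish: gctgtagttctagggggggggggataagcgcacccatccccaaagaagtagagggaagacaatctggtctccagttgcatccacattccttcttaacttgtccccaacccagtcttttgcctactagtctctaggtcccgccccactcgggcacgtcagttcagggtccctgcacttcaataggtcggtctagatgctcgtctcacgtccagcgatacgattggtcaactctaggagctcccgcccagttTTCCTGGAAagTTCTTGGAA
Socs3: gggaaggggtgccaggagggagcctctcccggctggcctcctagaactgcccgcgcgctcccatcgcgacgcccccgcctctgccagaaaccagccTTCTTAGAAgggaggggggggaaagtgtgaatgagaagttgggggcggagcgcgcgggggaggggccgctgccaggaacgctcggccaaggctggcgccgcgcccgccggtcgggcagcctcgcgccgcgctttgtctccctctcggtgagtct

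Of 19938 genes, 499 (2.50%) differed between 48 h and the mean of 12 and 15 h at an adjusted p under 0.05 (limma, Benjamini-Hochberg). At 48 h 225 were higher (1.13%) and 274 were lower (1.37%). For all 499 both arrays at 48 h lay beyond all 4 arrays at 12 and 15 h. Over all genes both arrays lay above all 4 for 15.4% and below all 4 for 12.0%. This separation rests on the same values as the call and is not separate support for it. The median difference over all genes was 0.02 on the log2 scale, with 11060 genes above 0 and 8878 below. Across the 35557 probe sets, which are not independent replicates, arrays correlated at 0.991 to 0.993 within a time. Between 12 and 15 h they correlated at 0.991 to 0.994, and between 48 h and the earlier arrays at 0.986 to 0.992. No gene passed between 15 and 12 h (0%), where 798 had an unadjusted p under 0.05, against 3333 at 48 h. The first comparison sets 2 arrays against 2 and the second 2 against 4, so these counts are not on equal terms. Against 12 h alone 50 genes passed at 48 h (0.251%), and against 15 h alone 361 (1.81%). The count rested on single arrays: it was 40 without 12 h replicate 1, 23 without 12 h replicate 2, 213 without 15 h replicate 1, 165 without 15 h replicate 2, 34 without 48 h replicate 1 and 743 without 48 h replicate 2. Only 20 genes passed in all 6 of these fits, 17 of them higher and 3 lower (Erfe, Mamdc2 and Plod2). Of the 225 rises, 132 had a level at 12 and 15 h above the median of all genes and 93 below it. A hepatocyte list, described at the end, held 39 of the 225, none of them among the 132.

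**Figure D1:**
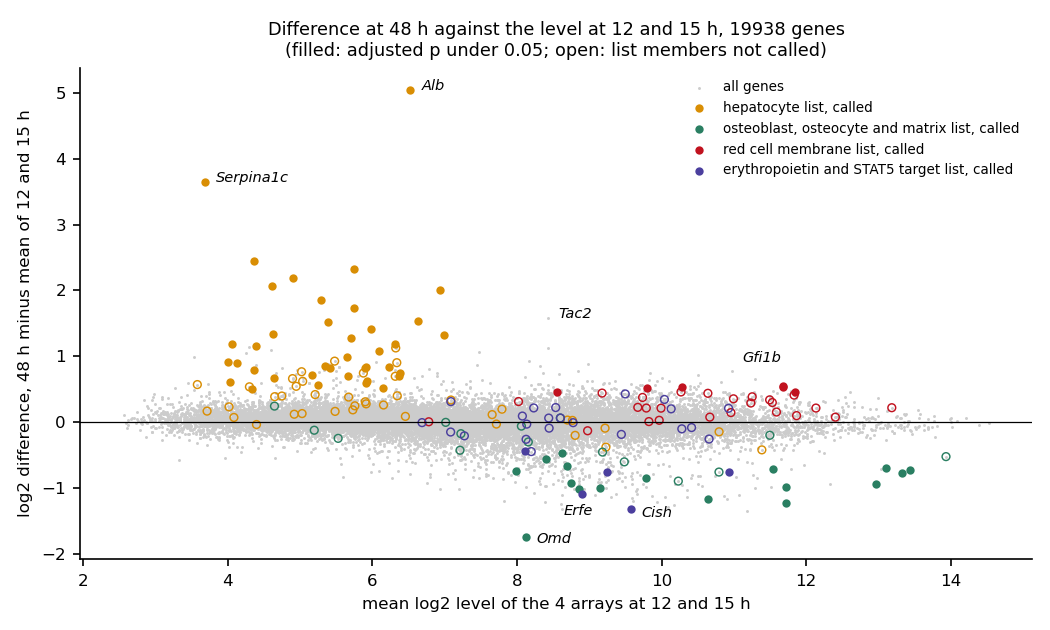
Each point is 1 gene, with its mean log2 level at 12 and 15 h on the x axis and its log2 difference at 48 h on the y axis. Filled colours mark called members of 4 lists and open circles their other members. Called hepatocyte genes rise from low levels, with Alb at 5.04, while called bone matrix genes such as Omd (-1.74) and the erythropoietin targets Erfe and Cish lie below 0.

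The erythropoietin and STAT5 target genes that changed were all lower at 48 h. Of 27 measured, 5 fell (18.5%, against 1.37% of all genes), none rose, and 22 did not pass. The median difference was -0.08 against 0.02 over all genes. Erfe (probe set 10348590), which encodes erythroferrone, read 8.67 and 8.84 at 12 h, 9.07 and 9.01 at 15 h, and 7.81 on both arrays at 48 h. The arrays at 48 h lay below all 4 earlier ones and above both controls of the same run of title numbers, which read 7.31 and 7.26. The Erfe difference was -1.09 ± 0.08 (SE of the fit, 2 arrays against 4, as throughout), a level 2.13-fold lower, with an adjusted p of 0.00172. Its adjusted p was at most 0.0166 whichever of the 6 arrays was left out.

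Cish (probe set 10588577), an SH2 protein that STAT5 induces and that limits signalling from the receptor, read 9.23 and 9.75 at 12 h, 9.88 and 9.46 at 15 h, and 8.21 and 8.31 at 48 h. It fell by 1.32 ± 0.16 (adjusted p = 0.0126), to a level still above the controls at 7.56 and 7.83. Pim1, a serine/threonine kinase that supports survival, fell by 0.76 ± 0.10 (adjusted p = 0.0151), from 10.78 to 11.02 on the earlier arrays to 10.26 and 10.09 at 48 h. For Pim1 the controls, at 9.92 and 10.23, overlapped with 48 h. Without 12 h replicate 2 or without 48 h replicate 1 neither gene passed (adjusted p up to 0.0916 for Cish and 0.0756 for Pim1), with differences of -1.45 to -1.19 for Cish and -0.85 to -0.67 for Pim1 over the fits without 1 array.

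The suppressors of cytokine signalling Socs2 and Socs3 were also lower. Socs2 read 9.14, 9.19, 9.40 and 9.28 at 12 and 15 h and 8.35 and 8.62 at 48 h, a fall by 0.76 ± 0.10 (adjusted p = 0.0138). Its controls read 9.26 and 8.61, so the spread between those 2 arrays was close to the size of the fall. Socs3 read 8.07 to 8.21 at 12 and 15 h and 7.61 and 7.76 at 48 h, a fall by 0.43 ± 0.08 (adjusted p = 0.0408) to just below its controls at 7.77 and 7.81. Socs2 did not pass without 12 h replicate 1, 12 h replicate 2 or 48 h replicate 1 (adjusted p up to 0.0916). Socs3 passed only without 48 h replicate 2 (adjusted p = 0.0424, and up to 0.31 in the others).

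Among other genes of the response, Plek2, Tfrc and Podxl did not pass and stood above the controls at 48 h. This was not general: the second control of Epor, which did not pass either, lay between its arrays at 48 h. Plek2, a pleckstrin family protein of the erythroid cytoskeleton, read 9.33 to 9.61 at 12 and 15 h and 9.29 and 9.23 at 48 h, against 7.73 and 8.27 in the controls. Its difference of -0.18 ± 0.08 did not pass (adjusted p = 0.283). Tfrc, the transferrin receptor that brings iron into erythroid cells, stood at 12.18 to 12.37 at 12 and 15 h and at 12.18 and 12.19 at 48 h, above both controls at 11.53 and 12.00. The Tfrc difference was -0.06 ± 0.08 (adjusted p = 0.773). Podxl, a sialomucin of the cell surface, also stood above its controls, at 8.36 and 8.35 at 48 h against 7.41 and 7.27, with a difference of -0.09 ± 0.12. For these 3 genes both arrays at 48 h lay above both controls, but the controls entered no test. The Tfrc controls were further apart from each other than the second was from the arrays at 48 h.

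Epor, the erythropoietin receptor, was the member with the highest difference of the list. It read 9.46 and 9.53 at both 12 and 15 h and 10.09 and 9.76 at 48 h, with controls at 9.35 and 9.98. Both arrays at 48 h lay above the 4 earlier ones, but its difference of 0.43 ± 0.10 did not pass (adjusted p = 0.0762). Osm, a cytokine gene and STAT5 target, read 7.98 to 8.39 earlier and 7.66 and 7.84 at 48 h, a difference of -0.45 ± 0.11 (adjusted p = 0.0768). Bcl2l1, the survival factor BCL-XL, differed by 0.20 ± 0.08, Pim2 by 0.22 ± 0.09 and Pim3 by -0.03 ± 0.08, none of which passed. Myc differed by -0.10 ± 0.13.

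**Figure D2:**
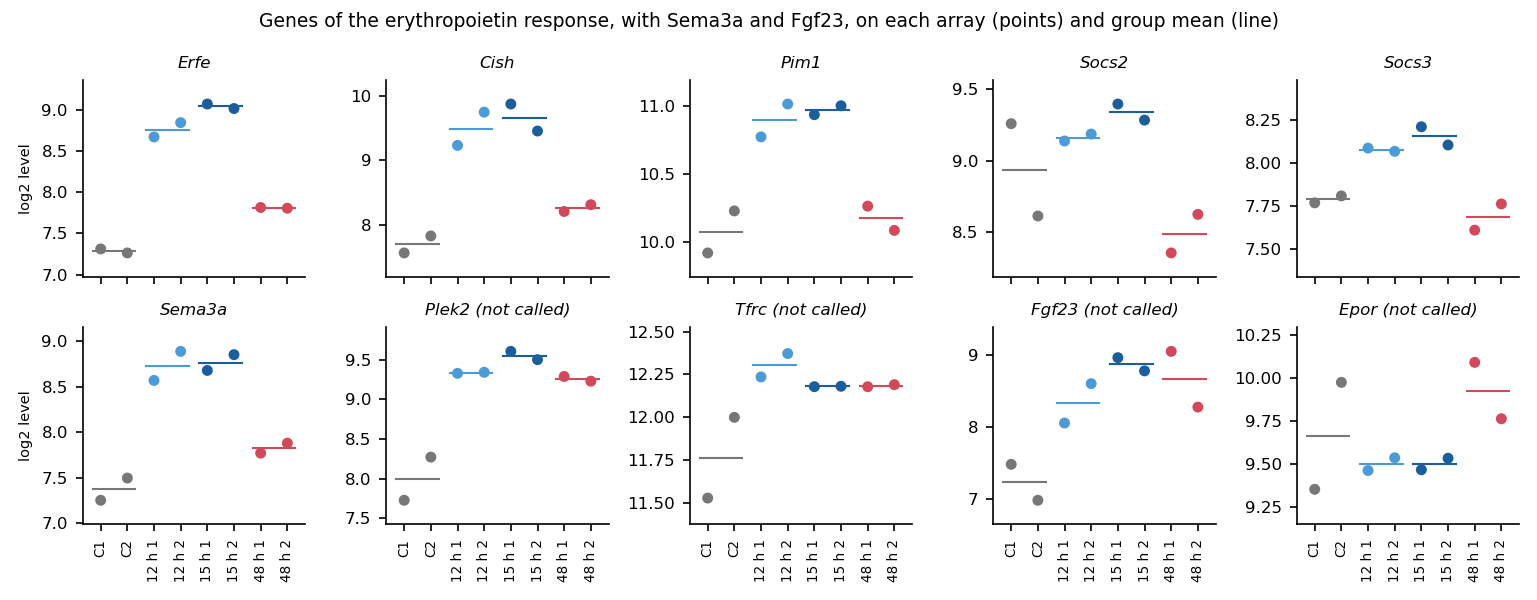
Log2 level (y axis, its own range in each panel) on each array (x axis) for 10 genes: C1 and C2 are the controls of the same run, points are arrays and lines group means of 2 arrays. Erfe, Cish, Pim1, Socs2, Socs3 and Sema3a are lower on both arrays at 48 h, while Plek2 and Tfrc stay above the controls.

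The erythroid lists leaned upward, but most of their members did not pass. Among 26 erythroid transcription factors only Gfi1b passed (3.85%, against 2.50% of all genes), a repressor needed for red cell and platelet precursors (probe set 10481304). It read 10.75 and 11.01 at 12 h, 11.02 and 11.11 at 15 h, and 11.84 and 11.65 at 48 h, above the controls at 11.001 and 11.42. Gfi1b rose by 0.77 ± 0.10, or 1.71-fold (adjusted p = 0.0153). The list's median difference was 0.20, with 24 of 26 members above 0, against 11060 of all 19938 genes. Gata1 and Klf1, master regulators of erythroid genes, differed by 0.34 ± 0.10 (adjusted p = 0.135) and 0.37 ± 0.11 (adjusted p = 0.134), and neither passed.

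Of 27 genes for heme synthesis and transport, 5 rose and 1 fell (22.2%, against 2.50% of all genes), with a median difference of 0.25. Among them were 2 enzymes of the cytosolic steps. Uros, uroporphyrinogen III synthase, read 9.58 to 9.76 earlier and 10.30 and 10.07 at 48 h and rose by 0.51 ± 0.09 (adjusted p = 0.0306). Urod, uroporphyrinogen decarboxylase, rose by 0.43 ± 0.08 (adjusted p = 0.0414), from 11.72 to 11.79 to 12.26 and 12.10. The 3 mitochondrial carriers that rose were Abcb10 by 0.49, Abcb6 by 0.40 and Tmem14c by 0.39. Flvcr2, a transporter of the FLVCR family, was the member that fell, by 0.77 ± 0.14 (adjusted p = 0.0316), from 7.67 to 7.98 to 6.89 and 7.34. Alas2, the first and rate-limiting enzyme of erythroid heme synthesis, stood at 12.90 to 13.05 earlier and at 13.18 and 13.15 at 48 h, and its difference of 0.20 ± 0.08 did not pass (adjusted p = 0.256).

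Red cell membrane and cytoskeleton genes had a median difference of 0.30, with 30 of 31 above 0, against 11060 of all 19938 genes. Of the 31, 6 rose (19.4%, against 1.13% of all genes) and none fell. On 24 of the 31 both arrays at 48 h lay above all 4 earlier arrays, which was so for 15.4% of all genes. Aqp1, the water channel, read 11.69 and 11.80 at 12 h, 11.59 and 11.62 at 15 h, and 12.31 and 12.14 at 48 h. It rose by 0.55 ± 0.09 (adjusted p = 0.0209), although the controls, at 11.81 and 12.14, reached the lower of the arrays at 48 h. Tmod1, which caps actin filaments of the membrane skeleton, rose by 0.54 ± 0.09 (adjusted p = 0.0249), and its second control, at 10.84, lay between the arrays at 48 h (10.92 and 10.74). Xk, the partner of the Kell protein, and Ermap, the Scianna blood group antigen, rose by 0.51 and 0.53. The others were Rhd (0.46), of the Rh complex, and Slc2a4 (0.47), the glucose transporter GLUT4. Slc4a1, the band 3 anion exchanger, differed by 0.22 ± 0.09 (adjusted p = 0.291) and the spectrin gene Sptb by 0.36 ± 0.11 (adjusted p = 0.151).

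Late maturation and enucleation genes followed the same direction. Of 39 measured, 5 rose (12.8%, against 1.13% of all genes) and none fell, with a median of 0.25 and 35 above 0. Fbxo7, a ubiquitin ligase subunit, read 9.11 to 9.25 earlier and 9.67 and 9.59 at 48 h, against controls at 9.02 and 9.46, and rose by 0.46 ± 0.08 (adjusted p = 0.028). Tspan33, a tetraspanin of erythroid progenitors, and Hagh, glyoxalase II, each rose by 0.45. Trim10, a RING finger protein of terminal erythroid differentiation, rose by 0.41, and Hemgn, the nuclear protein hemogen, by 0.39.

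**Figure D3:**
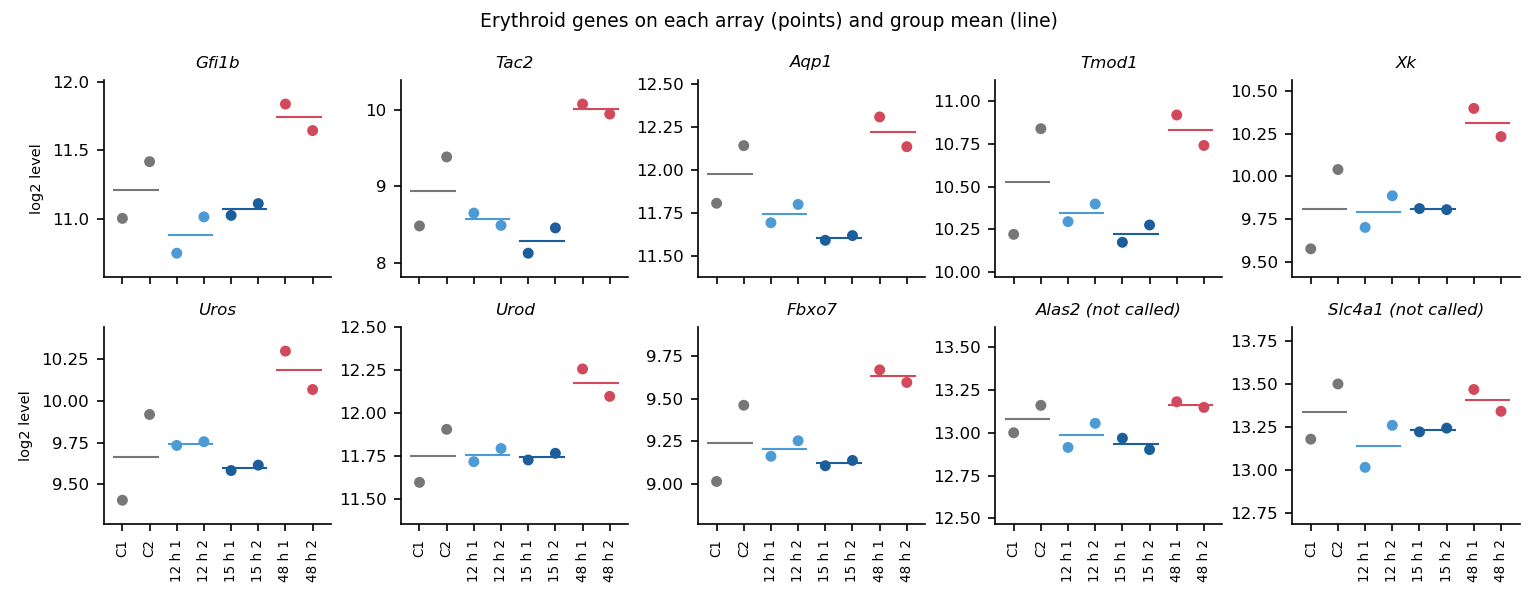
Log2 level (y axis, its own range in each panel) on each array (x axis) for Tac2 and 9 erythroid genes: points are arrays, lines group means of 2 arrays, C1 and C2 the controls of the same run. The arrays at 48 h lie above the 4 earlier ones in each panel, Alas2 and Slc4a1 did not pass the test, and the second control lies above the first throughout.

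The 2 control arrays differed from each other about as widely as 48 h differed from 12 and 15 h in these lists. Relative to the mean of the 4 earlier arrays, the mean level of the red cell membrane list was 0.34 and 0.22 higher on the arrays at 48 h, -0.14 in control replicate 1 and 0.23 in control replicate 2. For late maturation these values were 0.25 and 0.20 at 48 h against -0.06 and 0.25 in the controls. Of all 225 genes that rose, 219 had control replicate 1 below both arrays at 48 h, and 157 had control replicate 2 below both. For the 6 red cell membrane genes that rose these counts were 6 and 2. They were 5 and 4 for the 5 heme genes that rose, and 5 and 4 for the 5 of late maturation. The hepatocyte list gave 39 and 38 of its 39. On the same arrays at 48 h the hepatocyte list stood 0.94 and 0.66 above the earlier mean, and the osteoblast, osteocyte and matrix list at -0.73 and -0.49 relative to it. Their part in the erythroid differences was not tested. In bulk marrow, fewer cells of a type and less RNA per cell cannot be told apart. Several erythroid calls ended whichever of the 4 earlier arrays was left out, and also without 48 h replicate 1. This was so for Uros, Urod, Tmem14c, Flvcr2, Aqp1, Tmod1, Xk, Ermap, Fbxo7, Tspan33, Hagh and Trim10. Tmem14c and Hagh did not pass without 48 h replicate 2 either. Over the fits without 1 array their differences were 0.37 to 0.40 and 0.41 to 0.49. Gfi1b passed without either 15 h array and without 48 h replicate 2, and its adjusted p reached 0.117 in the others.

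**Figure D4:**
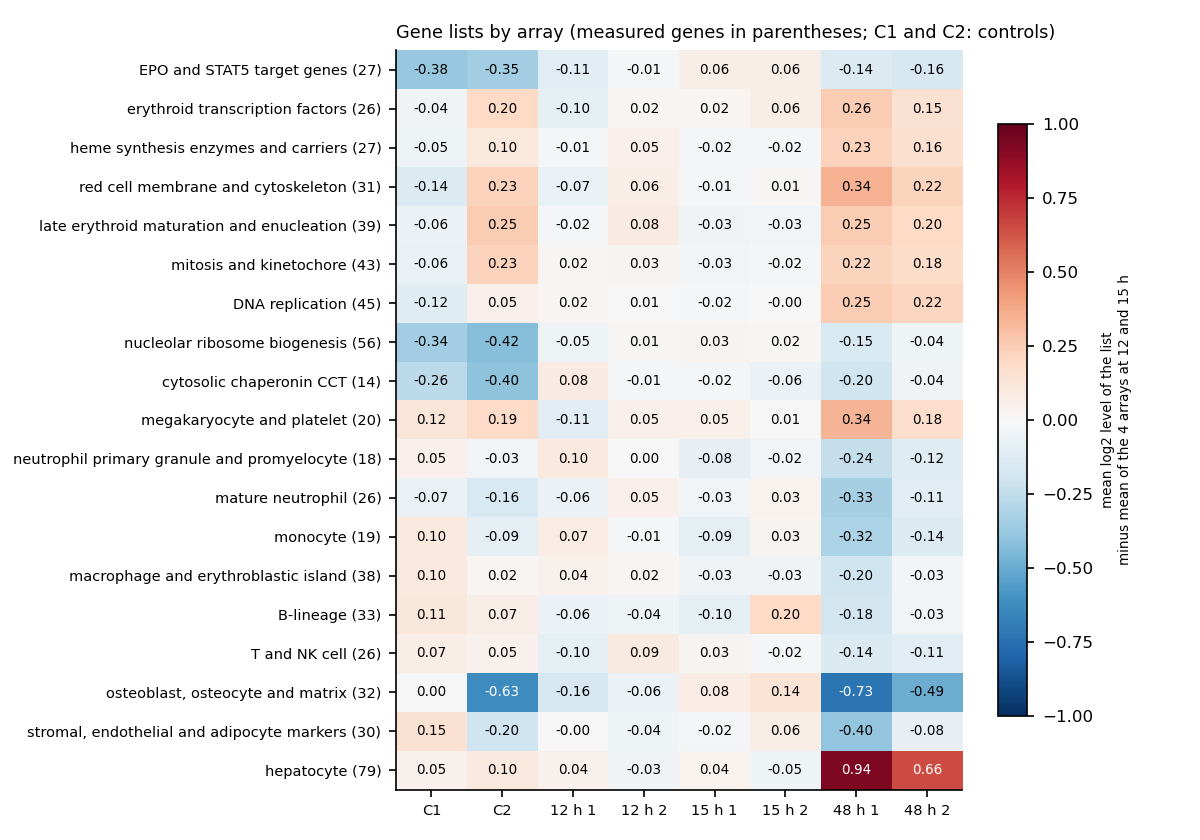
Mean log2 level of each gene list (y axis, with the number of measured genes) on each array (x axis), as the difference from the mean of the 4 arrays at 12 and 15 h, on a colour scale from -1 (blue) to 1 (red). The arrays at 48 h stand 0.94 and 0.66 higher for the hepatocyte list and lower for the osteoblast list (-0.73 and -0.49), and control replicate 2 (C2) resembles them in the osteoblast (-0.63) and red cell membrane (0.23) lists.

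The largest rise outside the hepatocyte list was Tac2 (probe set 10367024), which encodes the tachykinin neurokinin B. It read 8.65 and 8.49 at 12 h, 8.12 and 8.45 at 15 h, and 10.08 and 9.95 at 48 h, against 8.48 and 9.38 in the controls. Both arrays at 48 h lay above the other 6. Tac2 rose by 1.58 ± 0.11 (adjusted p = 0.0011), and passed whichever array was left out, with an adjusted p of at most 0.0166. Next among genes above the median level were Lrrc39, a leucine-rich repeat protein (1.06 ± 0.13), Fn3k, a kinase that removes sugars from glycated proteins (0.89 ± 0.09), and Mettl27, a methyltransferase-like protein (0.86 ± 0.11).

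Fn3k read 8.81 to 9.13 earlier and 9.97 and 9.76 at 48 h, but its second control also reached 9.88. The same held for Lrrc39 and Mettl27, whose second controls, at 8.57 and 9.29, lay between their arrays at 48 h. The further rises above the median level were between 0.65 and 0.77: Afmid, an enzyme of tryptophan breakdown; Pkhd1l1, a fibrocystin-like protein; Suox, sulfite oxidase; Slc38a5, an amino acid transporter; Aldh3b2, an aldehyde dehydrogenase; Fam117a; and Stard10, a lipid transfer protein. Suox read 8.23 to 8.52 earlier and 9.14 and 9.08 at 48 h, with controls at 8.64 and 9.08. Aldh3b2 and Fam117a were both lower at 48 h than in control replicate 2, at 8.81 and 8.79 against 9.13 and at 10.80 and 10.56 against 10.93. None of these genes, Lrrc39, Fn3k and Mettl27 included, passed without 12 h replicate 2 or without 48 h replicate 1 (adjusted p up to 0.12 for Slc38a5). Only Lrrc39 and Fn3k of them passed without 12 h replicate 1.

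Cell division genes leaned upward, with few calls. All 45 measured DNA replication genes had differences above 0, against 11060 of all 19938 genes, with a median of 0.23. Only Cdc6, the origin licensing factor, passed (0.47 ± 0.08, adjusted p = 0.0286), or 2.22% of the list against 2.50% of all genes. On 35 of the 45 both arrays at 48 h lay above all 4 earlier ones, against 15.4% of all genes. Of 43 mitosis and kinetochore genes, 42 lay above 0, with a median of 0.20. Aspm (0.49 ± 0.07, adjusted p = 0.0201), a spindle pole protein, and Cdca3 (0.37 ± 0.08, adjusted p = 0.0496), a trigger of mitotic entry, passed (4.65% of the list). Relative to the mean of the 4 earlier arrays, the mitosis list stood at 0.22 and 0.18 at 48 h, and at -0.06 and 0.23 in the controls. The DNA replication list stood at 0.25 and 0.22 at 48 h, and at -0.12 and 0.05 in the controls. E2f1, the transcription factor of the G1/S transition, was the 1 call among 32 genes of MYC and G1 control (0.41 ± 0.08, adjusted p = 0.0478), or 3.12%. The second control of E2f1 was not below both arrays at 48 h. Mki67, the proliferation marker Ki-67, read 12.84 to 12.91 earlier and 13.11 and 13.05 at 48 h (0.20 ± 0.08, adjusted p = 0.239). Its controls read 12.83 and 13.12, the second above both arrays at 48 h. Mcm5, a subunit of the replicative helicase, differed by 0.25 ± 0.08 (adjusted p = 0.163).

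Genes of the protein synthesis machinery leaned slightly downward or not at all, and none passed. The medians were -0.08 for 56 nucleolar ribosome biogenesis genes, -0.07 for 60 mitochondrial ribosomal proteins and 0.03 for 33 aminoacyl-tRNA synthetases. All 14 subunits of the cytosolic chaperonin CCT lay below 0, against 8878 of all 19938 genes, with a median of -0.12 and no call. Relative to the earlier mean the CCT list stood at -0.20 and -0.04 at 48 h, and at -0.06 to 0.08 on the 4 earlier arrays. For CCT 48 h replicate 2 thus lay within the earlier range, and only 48 h replicate 1 below it. The ribosome biogenesis list stood at -0.15 and -0.04 on the arrays at 48 h relative to the earlier mean, and at -0.34 and -0.42 in the controls. The 4 earlier arrays ran from -0.05 to 0.03, so 48 h replicate 2 lay within their range and only 48 h replicate 1 below it.

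Of 33 heat shock proteins and chaperones, 3 fell (9.09%, against 1.37% of all genes) and none rose, with a median of -0.19. On 23 of the 33 both arrays at 48 h lay below all 4 earlier ones, against 12.0% of all genes. Those that fell were Hsf2, a heat shock transcription factor (-0.43 ± 0.08, adjusted p = 0.0395), Pdia6, a protein disulfide isomerase of the endoplasmic reticulum (-0.42 ± 0.08, adjusted p = 0.0406), and Sdf2l1, a partner of the chaperone BiP (-0.46 ± 0.10, adjusted p = 0.0496). Pdia6 read 9.69 to 9.77 earlier and 9.24 and 9.36 at 48 h, and its controls were apart at 9.55 and 9.19. Hsf2 and Sdf2l1 passed in none of the fits without 1 array (adjusted p of 0.0621 to 0.233 and 0.0901 to 0.268), and Pdia6 only in the fit without 48 h replicate 2.

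Bone-forming cell and matrix genes were lower at 48 h. Of 32 genes of osteoblasts, osteocytes and matrix, 17 fell, against 1.37% of all genes, none rose and 15 did not pass, with a median of -0.68. On 26 of them both arrays at 48 h lay below all 4 earlier arrays, against 12.0% of all genes. The fibrillar collagen genes Col1a1, Col1a2, Col3a1, Col5a2 and Col11a1 all fell, with differences of -0.77, -0.94, -0.56, -1.01 and -0.85. The small proteoglycan genes Bgn, Dcn and Lum, for biglycan, decorin and lumican, fell too (-0.69, -0.72 and -1.22).

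Col1a1, a chain of type I collagen, read 12.99 and 13.33 at 12 h, 13.50 and 13.47 at 15 h, and 12.33 and 12.78 at 48 h, against 13.64 and 13.04 in the controls. Omd (probe set 10405058), for the matrix keratan sulfate proteoglycan osteomodulin, had the largest fall of all genes named, at -1.74 ± 0.36 (adjusted p = 0.0494), with 7.93 to 8.26 on the earlier arrays. Its arrays at 48 h were far apart at 5.58 and 7.19, as were its controls at 8.19 and 6.48. It passed only without 48 h replicate 2, and its difference ran from -2.54 to -0.93 over the fits without 1 array.

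Genes of mineralisation fell as well. Ibsp, bone sialoprotein, read 11.42 and 11.47 at 12 h, 11.60 and 11.68 at 15 h, and 10.82 and 10.84 at 48 h, below both controls at 11.68 and 11.08. It fell by 0.71 ± 0.08 (adjusted p = 0.00878). Phex, the osteocyte endopeptidase that limits FGF23, fell by 1.16 ± 0.13 (adjusted p = 0.0103), from 10.34 to 11.08 to 9.34 and 9.61. Dmp1, a dentin and osteocyte matrix protein, fell by 0.73 ± 0.14 (adjusted p = 0.0368). It read 7.75 and 7.41 at 12 h, 8.20 and 8.59 at 15 h, and 7.30 and 7.21 at 48 h, so its earlier values differed between 12 and 15 h.

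The collagenase gene Mmp13 read 11.37 and 11.02 at 12 h, 12.01 and 12.50 at 15 h, and 10.52 and 10.96 at 48 h. It fell by 0.98 ± 0.17 (adjusted p = 0.0322), and its controls, at 10.67 and 9.78, overlapped with 48 h. Sema3a, a secreted guidance cue made by osteoblast-lineage cells, read 8.57 to 8.89 at 12 and 15 h and 7.77 and 7.88 at 48 h, above the controls at 7.25 and 7.496. Sema3a fell by 0.92 ± 0.11 (adjusted p = 0.011). Adamts5, an aggrecan-degrading protease, showed the same order, at 9.08 to 9.40 earlier, 8.69 and 8.77 at 48 h and 8.34 and 8.35 in the controls, but its difference of -0.45 ± 0.10 did not pass (adjusted p = 0.0609).

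The regulators of bone formation that fell were Sp7, osterix, by 1.00 ± 0.18, Pth1r, the parathyroid hormone receptor, by 0.67 ± 0.14, and the WNT inhibitor Dkk1 by 0.46 ± 0.08. Fgf23, the osteocyte hormone of phosphate balance that blood loss and erythropoietin raise, did not share in the fall. It read 8.06 and 8.60 at 12 h, 8.97 and 8.78 at 15 h, and 9.05 and 8.28 at 48 h, all above the controls at 7.48 and 6.98. Its difference of 0.06 ± 0.22 had no stable sign, being 0.45 at most and -0.32 at least over the fits without 1 array. Alpl, alkaline phosphatase, differed by -0.76 ± 0.19 and did not pass (adjusted p = 0.09). Tnfsf11, the osteoclast factor RANKL, differed by -0.06 ± 0.07.

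The 12 largest falls held further genes that were in no list. Lox, lysyl oxidase, which cross-links collagen, read 10.87 and 11.26 at 12 h, 11.31 and 11.29 at 15 h, and 9.53 and 10.14 at 48 h, a fall by 1.35 ± 0.17 (adjusted p = 0.0138). Plod2, a collagen lysyl hydroxylase, read 9.89 and 9.98, 10.17 and 10.29, and 8.60 and 8.99, and fell by 1.29 ± 0.12 (adjusted p = 0.00382). Both arrays at 48 h lay below both controls for Lox (11.23 and 10.46) and for Plod2 (10.30 and 9.54). Mamdc2, a MAM domain protein of the matrix, fell by 1.32 ± 0.13 (adjusted p = 0.00545), from 8.47 to 8.82 to 7.13 and 7.48. Mamdc2 and Plod2 passed whichever array was left out, with adjusted p up to 0.0445 and 0.0447.

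Fkbp14, a prolyl isomerase that folds collagen in the endoplasmic reticulum, fell by 1.22 ± 0.15. Kdelr3, a receptor that returns proteins to the endoplasmic reticulum, fell by 1.204 ± 0.17, and Creb3l1, a transcription factor for collagen genes in osteoblasts, by 1.19 ± 0.18. Slc13a5, a citrate transporter, fell by 1.25 ± 0.18 (adjusted p = 0.0175), from 9.96 to 10.31 to 8.58 and 9.26. P4ha1, a collagen prolyl hydroxylase, was the 1 gene to pass among 37 hypoxia-inducible and glycolysis genes (2.7%, against 2.50% of all genes). It fell by 0.59 ± 0.11 (adjusted p = 0.0408).

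**Figure D5:**
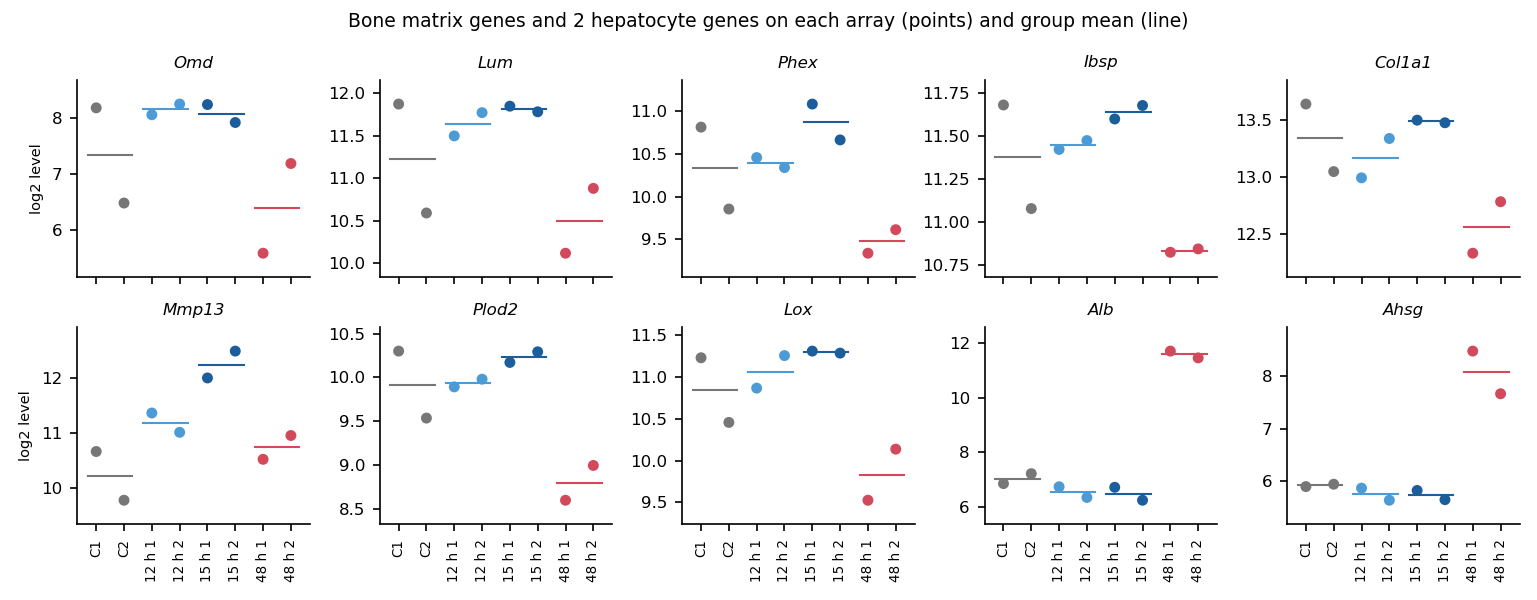
Log2 level (y axis, its own range in each panel) on each array (x axis) for 8 matrix genes and the hepatocyte genes Alb and Ahsg: points are arrays, lines group means of 2 arrays, C1 and C2 the controls of the same run. The matrix genes are lower at 48 h and also differ between the controls, while Alb stands at 11.69 and 11.44 at 48 h and between 6.26 and 7.23 on the other arrays shown.

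The 2 controls stood apart in the bone matrix list as well. Its mean level was 0.00 in control replicate 1 and -0.63 in control replicate 2 relative to the earlier mean, against -0.73 and -0.49 at 48 h. Of the 17 genes that fell, 15 had control replicate 1 above both arrays at 48 h and 9 had control replicate 2 above both. Over all 274 genes that fell, these counts were 266 and 127. Control replicate 2 thus lay near 48 h in this list, and whether the share of bone cells in each femur sample moved with time was not tested. Without 12 h replicate 2 or without 48 h replicate 1 the calls of Ibsp, Phex, Sema3a, Col11a1, Lox, Slc13a5, Fkbp14 and Creb3l1 ended, with adjusted p up to 0.107 for Creb3l1. Those of Lum, Kdelr3, Phex, Lox, Slc13a5 and Creb3l1 also ended without 12 h replicate 1. Lum did not pass without 15 h replicate 2 either.

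Stromal, endothelial and adipocyte markers showed 3 falls and 1 rise among 30 (13.3%, against 2.50% of all genes), with a median of -0.18. Gja1, connexin 43, fell by 1.00 ± 0.19, Pdgfra, a receptor of mesenchymal cells, by 0.77 ± 0.14, and Car3, a carbonic anhydrase abundant in fat and muscle, by 0.71 ± 0.13. Pdgfra read 9.18 to 9.64 earlier and 8.39 and 8.91 at 48 h, and the second of its controls, at 9.72 and 8.90, lay as low. Cxcl12, the chemokine of marrow stroma, differed by -0.41 ± 0.12 (adjusted p = 0.123), and Adipoq, adiponectin, by -0.78 ± 0.29 (adjusted p = 0.235). The gene that rose was Vwf, von Willebrand factor, made by endothelium and megakaryocytes, which read 8.27 to 8.40 earlier and 9.05 and 8.76 at 48 h. Vwf rose by 0.58 ± 0.10 (adjusted p = 0.0312), above both controls at 8.39 and 8.58. It passed only without 48 h replicate 2, and Gja1, Pdgfra and Car3 likewise.

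Megakaryocyte and platelet genes leaned upward, with a median of 0.28 and 19 of 20 above 0, against 11060 of all 19938 genes. Relative to the mean of the 4 earlier arrays, the list stood at 0.34 and 0.18 at 48 h. The controls stood at 0.12 and 0.19, so 48 h replicate 2 lay just below control replicate 2. Of the 20, 10% passed, against 2.50% of all genes. Besides Vwf, Gp9, a subunit of the von Willebrand factor receptor of platelets, rose by 0.45 ± 0.08 (adjusted p = 0.0395), from 10.37 to 10.48 to 10.98 and 10.79, and its controls were at 10.80 and 10.89. Pf4, platelet factor 4, differed by 0.13 ± 0.12 and Itgb3, integrin beta 3, by 0.27 ± 0.09, and neither passed. Of 22 progenitor and stem cell markers only Vwf passed (4.55%, against 2.50% of all genes).

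White cell lists gave 2 calls, or 5.56% of the primary granule list and 3.03% of the B-lineage list, against 2.50% of all genes. Ctsg, cathepsin G, was 1 of 18 primary granule and promyelocyte genes to fall (-0.47 ± 0.09, adjusted p = 0.0437), while Mpo and Elane, the main primary granule enzymes, differed by -0.08 ± 0.08 and -0.16 ± 0.08. Fcer2a, the low-affinity IgE receptor of B cells, was the only call among 33 B-lineage genes (-0.84 ± 0.16, adjusted p = 0.0368), and its controls were at 7.97 and 6.95 against 6.58 and 7.06 at 48 h. No call was made among 26 T and NK cell, 13 plasma cell, 20 MHC class II and dendritic, 38 macrophage, 19 monocyte, 24 secondary granule, 26 mature neutrophil and 23 eosinophil, basophil and mast cell genes. Their medians ran from -0.22 for plasma cells and for monocytes to 0.00 for MHC class II. The monocyte list stood at -0.32 and -0.14 on the arrays at 48 h and the mature neutrophil list at -0.33 and -0.11, lower in each case on 48 h replicate 1.

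Genes that carry the marrow's signal to the liver and the iron pathways were mostly without a call. Among 21 hepcidin regulators and BMP pathway genes, with a median of -0.22, Erfe and Id3 fell (9.52%, against 1.37% of all genes). Id3, a target of BMP signals, read 8.56 to 8.92 earlier and 7.71 and 8.17 at 48 h, with controls at 8.88 and 8.47, a fall by 0.82 ± 0.13 (adjusted p = 0.0207). Its relative Id1 differed by -0.26 ± 0.08 (adjusted p = 0.139). Twsg1, a secreted BMP-binding protein proposed as an erythroid regulator of hepcidin, read 9.03 to 9.14 earlier and 8.81 and 8.95 at 48 h, with controls at 9.03 and 8.75, and did not pass (-0.20 ± 0.08, adjusted p = 0.275). Of 30 genes of iron uptake, storage and export only Cp, ceruloplasmin, passed (3.33%, against 2.50% of all genes). Cp fell by 0.64 ± 0.12 (adjusted p = 0.0408), from 9.93 to 10.14 to 9.18 and 9.58.

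Stress and metabolic lists held few calls. Of 35 ATF4 amino acid response genes 3 fell (8.57%, against 1.37% of all genes), with a median of -0.03. They were Aldh1l2, a mitochondrial folate enzyme (-1.1998 ± 0.17), Nupr1, a stress-induced nuclear protein (-1.17 ± 0.16), and Vldlr, a lipoprotein receptor (-0.76 ± 0.12). Nupr1 read 10.77 to 11.02 earlier and 9.42 and 10.05 at 48 h, with its controls apart at 10.68 and 9.57, as in the matrix genes. Nupr1 did not pass without 12 h replicate 1 or 2 (adjusted p up to 0.0901), nor did Aldh1l2 without these or without 48 h replicate 1 (up to 0.12). Vldlr passed only without 48 h replicate 2 (up to 0.107 in the other fits). Interferon response genes had 1 call among 48 (2.08%, against 2.50% of all genes). This was Cmpk2 (0.45 ± 0.09, adjusted p = 0.0408), a mitochondrial nucleotide kinase. Its second control, at 10.77, stood above both arrays at 48 h (10.64 and 10.52).

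Cholesterol synthesis (29 genes), glucocorticoid and metallothionein (27 genes) and histone (17 genes) lists had no call, with medians of -0.03, -0.15 and 0.08. None of 22 circadian clock genes passed, with a median of -0.00. Nr1d1, the clock repressor REV-ERB alpha, read 8.61 and 8.41 at 12 h, 8.86 and 9.24 at 15 h, and 8.72 and 8.73 at 48 h, so the arrays at 48 h lay between the other times. Dbp and Per2, clock output and core genes, differed by 0.22 ± 0.09 and 0.08 ± 0.08.

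Hepatocyte transcripts are set apart because marrow is not known to make most of them. Of 79 measured, 39 were higher at 48 h (49.4%, against 1.13% of all genes) and none lower, with a median of 0.66. Alb (probe set 10523062), albumin, read 6.75 and 6.36 at 12 h, 6.73 and 6.26 at 15 h, and 11.69 and 11.44 at 48 h, against 6.87 and 7.23 in the controls. It was higher by 5.04 ± 0.16, or 32.8-fold (adjusted p = 1.38e-05). Serpina1c, an alpha-1 antitrypsin, was higher by 3.64 ± 0.31, Mup3, a major urinary protein, by 2.45 ± 0.11, Ahsg, fetuin-A, by 2.33 ± 0.20, and Fgg, a fibrinogen chain, by 2.06 ± 0.11. Fabp1, the liver fatty acid binding protein, read 7.75 and 6.43 at 48 h against 4.86 to 4.97 earlier, so 48 h replicate 1 held more of it than replicate 2, and it did not pass without 12 h replicate 1 or 2 (adjusted p up to 0.0901). Of the 20 genes that passed whichever array was left out, 14 belonged to this list.

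Several of the largest rises outside the list are also known from the liver and came from low levels: Mup5, another urinary protein (1.14 ± 0.08), Aadac, an esterase (1.09 ± 0.11), the cytochromes P450 Cyp4a31 (0.98 ± 0.14) and Cyp2d26 (0.92 ± 0.14), G6pc, glucose-6-phosphatase (0.89 ± 0.14), and Slc27a2, a fatty acid transporter (0.83 ± 0.17). G6pc is in the hepatocyte list as G6pc1, a symbol that found no match in the annotation, so it was counted outside the list. Klk1b7-ps and AI182371, with 0.87 and 0.84, completed the 12 largest rises. Mup5 passed whichever array was left out, and Aadac in all but the fit without 12 h replicate 2 (adjusted p = 0.0577). Cyp4a31, Cyp2d26 and AI182371 did not pass without 12 h replicate 1, 12 h replicate 2 or 48 h replicate 1 (adjusted p up to 0.119). G6pc and Klk1b7-ps passed in 2 of the 6 fits, with adjusted p up to 0.126. Slc27a2 passed only without 48 h replicate 2, with a difference of 0.50 to 1.16 and an adjusted p of up to 0.21 over the fits. With the hepatocyte list left out of the test, an alternative chosen after the values were seen, 431 genes passed, 170 higher and 261 lower. Whether liver RNA was present on the arrays at 48 h was not tested, and its part in the other differences was not tested either.

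Other tissues that could adhere to a femur or enter a dissection gave little. The skeletal muscle list had no call among 34 genes, but its mean level was 8.02 on 48 h replicate 1 and 6.76 on replicate 2, against 6.85 to 7.53 earlier, so the arrays at 48 h lay on both sides of the others. Of 51 small intestine genes, Reg3b and Reg3g, antimicrobial lectins, fell and Zg16, a goblet cell lectin, rose (5.88% of the list, against 2.50% of all genes). Reg3b read 5.17 to 5.80 at 12 and 15 h, 4.85 and 4.68 at 48 h, and 7.43 and 7.11 in the controls, a fall by 0.83 ± 0.16 (adjusted p = 0.041). Reg3g fell by 0.51 ± 0.10 and Zg16 rose by 0.63 ± 0.11 (adjusted p = 0.029). Zg16 passed in none of the fits without 1 array (adjusted p of 0.0518 to 0.14), Reg3b only without 12 h replicate 2 and Reg3g only without 15 h replicate 2, with adjusted p up to 0.177 and 0.212.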

How the data were processed

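The authors' deposited table holds log2 levels for 13 arrays, which per the submitters' processing notes were made with RMA; its version is not given in the sources. No scanner file was used here. Of 35557 probe sets, 21789 have 1 gene symbol in the platform annotation (updated through the Entrez identifier for 21698), 1621 carry more than 1, and 12147 have no entry in it. A gene with several probe sets (999 genes) was represented by its brightest, by the mean of all 13 arrays, leaving 19938 genes. Groups follow the time label.

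limma 3.58.1 (R 4.3.3) fitted 3 group means to the 6 arrays, and the contrast was 48 h minus the mean of the 12 and 15 h means (lmFit, eBayes, 3 residual and 5.22 prior degrees of freedom, two-sided). P-values were adjusted over all genes by Benjamini-Hochberg, and the threshold was 0.05. The median SE was 0.09, and precision is limited by how few arrays there are. The fit was tested on simulated data. Controls are the 2 arrays whose title numbers lie in the same run as the 6, and they entered no test here.

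The arrays and the 39 gene lists, from textbook knowledge, were chosen with earlier results of these data known. Lists are described by counts and medians. The text names the 12 largest rises and falls among called genes without overlap (leaving out predicted genes, small RNAs and hepatocyte genes), up to 4 called members of each list with at least 3 calls, and 24 genes chosen by hand for the erythropoietin, iron, erythroid, cell cycle and clock responses, 2 of which are not reported here. The largest rises above the median level, the 8 largest hepatocyte differences and the remaining list members were added after the values were seen. Alternatives changed the groups and arrays fitted, the reference time, the normalization, the variance model, the filter, the probe set rule and each array in turn. The background correction and the scan as a block need scanner files and were not run. Python 3.11.15 with matplotlib 3.10.9 drew the figures.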

Additional observations from a re-analysis of the deposited data

Results flagged for a closer look

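In 5 of the 87 named genes, 1 of the 4 arrays at 12 and 15 h lay far from the other 3 by Dixon's test of the gap against the range, which chance does in about 1 in 20 groups of 4. On 12 h replicate 1 this was so for Lox, at 10.87 against 11.26 on the nearest array, for Flvcr2, at 7.67 against 7.93, for Gata1, at 9.76 against 10.04, and for Slc4a1, at 13.01 against 13.22. On 15 h replicate 1 Hsf2 read 7.22 against 7.37 on the nearest array. In all 5 the array that stood apart was the lowest of the 4.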

How the results depend on the processing

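The count of 499 genes (225 higher, 274 lower) moved to 55 (46 and 9) with the 10 arrays of the larger run, to 165 (141 and 24) with all 13 arrays and a run term, to 50 (34 and 16) against 12 h alone, to 1188 (603 and 585) with trended robust moderation, to 840 (377 and 463) without the dimmest genes and to 35 (31 and 4) over every probe set. Against 15 h alone 361 genes passed (139 higher, 222 lower). Leaving out 1 array gave 23 to 743 genes, 18 to 314 higher and 5 to 429 lower. Of 499, 55 remained with 10 arrays, 435 with quantile normalization, 449 with centred arrays and 454 with 12 and 15 h pooled. Why the counts moved was not tested. A fit without 1 array also has fewer residual degrees of freedom, and the part of this was not tested either.

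Over the 71 called genes named, 724 of 1120 alternative values kept their call, 396 lost it and none turned. Other called genes in the text, such as Col1a1, Mmp13, Dmp1, Id3, Cp, Cdc6 and Gp9, are outside these 71 and were not followed one by one. None of them kept its call in every fit without 1 array. With 10 arrays Erfe, Cish, Pim1, Sema3a, Tac2, Mamdc2 and Plod2 passed, and Socs2, Socs3, Gfi1b, Ibsp and Lox did not. Among genes without a call the sign turned for Fgf23 (-0.21 against 15 h alone, -0.32 to 0.45 without 1 array), Tfrc (0.00465 against 15 h alone), Myc (-0.23 to 0.025 without 1 array) and Nr1d1 (0.22 against 12 h alone, -0.15 to 0.043 without 1 array). Of 624 list medians 53 moved by more than the spread between replicates; the skeletal muscle median ran from -0.38 to 0.72. No paired analysis was possible because the labels give no replicate numbers that the groups share.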
